A study of Homo sapiens with 10 samples.

Results

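The 10 genes described here encode the enzymes that make, lengthen and desaturate fatty acids in the cytosol and the ER membrane. They are ACLY, ACSS2, ACACA, ACACB, FASN, SCD, ELOVL5, ELOVL6, FADS1 and FADS2. They were chosen by name, with earlier results of these data known, among the 32738 genes of the count table. All 10 were among the 12733 genes with enough counts to be tested. Their RNA was measured in HepG2 cells, a human hepatoma line, kept for 17 h either in regular medium (the untreated cells) or in medium with 2 µg/ml tunicamycin, which blocks N-linked glycosylation and thereby stresses the ER. Each condition had 5 libraries, and the series text places the replicates on separate days.

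In liver cells, fatty acid synthesis starts from cytosolic acetyl-CoA, which ACLY makes from citrate and ACSS2 from acetate. Acetyl-CoA carboxylase turns it into malonyl-CoA, FASN uses both to build palmitate, and enzymes of the ER membrane lengthen palmitate and insert double bonds, giving the acyl chains of membrane phospholipids and triglycerides. Transcription of these genes is known to be driven by SREBP and ChREBP, the products of SREBF1, SREBF2 and MLXIPL, with NF-Y at CCAAT boxes and Sp1 at GC boxes as common partners.

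Tunicamycin treatment lowered 9 of the 10 genes, and ELOVL5 was the exception. The largest fall was that of ELOVL6, to 33.6% of its untreated level, followed by ACSS2 at 38.2%, FASN at 38.3%, FADS2 at 45.2% and FADS1 at 48.8%. SCD, ACACA, ACACB and ACLY were left at 52.6% to 68.5% of the untreated level. A gene was called at an adjusted p under 0.05, taken from the quasi-likelihood test of edgeR and adjusted by Benjamini-Hochberg over every tested gene. By this rule 34.2% of all tested genes differed between the conditions, 16.6% lower and 17.6% higher, which is the background against which the 9 lower and 0 higher genes of the pathway stand. At an unadjusted p under 0.05 as well as with DESeq2, 0 of the 10 were higher. In 5 of them, ELOVL6, ACSS2, FASN, FADS2 and FADS1, the log2 fold change was under -1, which held for 3.65% of all tested genes. In all 9 genes every tunicamycin library lay below every untreated library, as it did for 11.9% of tested genes. The median log2 fold change of the 10 genes was -0.98, against -0.0033 for all genes tested, whose middle 50% lay between -0.34 and 0.35. RNA from a whole culture was measured, so fewer cells expressing a gene cannot be told apart from less of its RNA per cell.

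**Figure D1:**
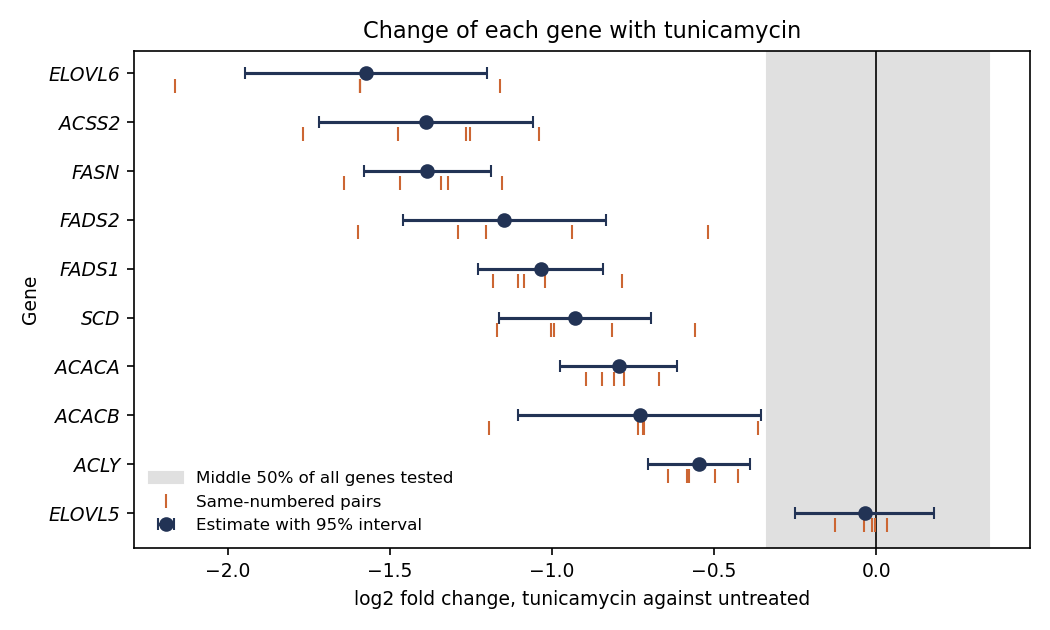
The log2 fold change of each gene, tunicamycin against untreated (horizontal axis), is drawn as a point with its 95% interval, with orange ticks for the log2 ratios within the 5 same-numbered pairs and a grey band for the middle 50% of all genes tested, -0.34 to 0.35. The intervals of 9 genes lie below the band, from ELOVL6 at -1.57 to ACLY at -0.55, while that of ELOVL5 includes 0.

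The promoters were searched for sequence elements that several of these genes carry. RefSeq start sites on GRCh38.p14 were found for 9 of the 10 genes, the other being FASN, and gave 15 windows of 250 bases before a start. Both strands were searched for 5 motifs, counting overlapping copies. The CCAAT box, CCAAT, occurred in 8 of the 15 windows (53.3%) against 32.01% of all 35116 promoter windows, and the GC box, GGGCGG, in 11 of 15 (73.3%) against 42.6%. Both stood in 6 windows (40.0%), belonging to ACACA, ACACB, ACLY, ACSS2 and SCD, against 13.1% of all windows. The most widespread motif, the GC box, was found before 8 of the 9 genes. A gene counts here if any of its windows has a match, and the share of all genes counted in this way is not known. Some genes gave several windows, and those of ACLY and of FADS2 overlap, so windows are not independent. The 35116 windows were not limited to genes tested here, so the shares among expressed genes are not known. Neither TCACNCCAC, one form of the sterol response element, nor TGATGNAAT, one form of the amino acid response element, was found in any of the 15. Each is rare, in 0.883% and 0.888% of all windows. Only these letters were searched, so elements with other letters would be missed and their absence is not shown. The E-box CACGTG was found before ELOVL5 only, against 6.34% of all windows. A match describes the letters and is no evidence of binding.

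The window before SCD, whose gene has the most counts of the 10, and the first window before ACLY, the gene at the head of the pathway, are given whole because each carries both elements and overlaps no annotated exon. Capitals mark CCAAT boxes (CCAAT, or ATTGG on the other strand) and GC boxes (GGGCGG, or CCGCCC).
SCD, chr10:100346983-100347232, plus strand: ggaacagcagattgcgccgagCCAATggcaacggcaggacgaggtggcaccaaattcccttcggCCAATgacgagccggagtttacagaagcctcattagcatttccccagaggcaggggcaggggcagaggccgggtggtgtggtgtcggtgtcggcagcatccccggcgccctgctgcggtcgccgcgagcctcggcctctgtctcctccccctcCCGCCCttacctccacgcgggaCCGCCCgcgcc
ACLY, chr17:41919023-41919272, minus strand: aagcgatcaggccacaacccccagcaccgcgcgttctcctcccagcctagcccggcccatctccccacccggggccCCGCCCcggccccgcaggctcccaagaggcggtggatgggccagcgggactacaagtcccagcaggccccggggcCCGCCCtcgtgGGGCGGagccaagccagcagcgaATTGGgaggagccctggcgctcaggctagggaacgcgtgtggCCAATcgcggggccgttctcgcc
SCD thus has 2 CCAAT boxes and 2 GC boxes, and ACLY 2 and 3.

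The next sites, each with the bases around it, set the gene that did not fall beside genes that did; capitals mark the motif alone. ELOVL5 carries 2 CCAAT boxes, which begin 122 and 68 bases before its start, and no GC box.
ELOVL5, chr6:53349058-53349082, minus strand: ttgtcccgcgATTGGctcccgggcc
ELOVL5, chr6:53349004-53349028, minus strand: tcgggtcccgATTGGctggccgcgc
ACSS2, chr20:34874856-34874880, plus strand: cctccttgggATTGGgcagactctc
ACACA, chr17:37359308-37359332, minus strand: ccgccctcccATTGGctgccgctga
ACACB, chr12:109154435-109154459, plus strand: tcaattgctgCCAATatgtaggggt
ELOVL6, FADS1 and FADS2 have a GC box in these windows but no CCAAT box.
ELOVL6, chr4:110198722-110198747, minus strand: tgtcccccccGGGCGGagagaggtcg
FADS1, chr11:61817193-61817218, minus strand: aaccccggccCCGCCCacccttcctg
FADS2, chr11:61816240-61816265, plus strand: ggttctgtccCCGCCCagagacctga
The ELOVL5 and ELOVL6 sites lie within an annotated exon of their own gene that begins farther upstream, and some of the bases printed around the FADS1 and FADS2 motifs, but not the motifs, overlap one; the ACSS2, ACACA and ACACB sites overlap none. In these windows a CCAAT box was present before ELOVL5, which was not called, and before ACACA, ACACB, ACLY, ACSS2 and SCD, which fell. It was absent from the windows of 3 genes that fell, ELOVL6, FADS1 and FADS2. The GC box was present before all of these genes except ELOVL5. FASN had no window, and whether either element has a part in the falls was not tested.

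Levels are given as normalized counts, that is, counts divided by the library size scaled with the TMM method and multiplied by the mean scaled size. Library preparation targeted mRNA 3′ ends, roughly a single fragment per transcript, so that a level does not grow with transcript length. Genes are set side by side on this ground, but whether the fragments of every gene were counted equally well was not tested. Libraries held 4242538 to 4888292 counts in untreated cells and 2234682 to 5029864 in tunicamycin-treated cells, the lowest being tunicamycin replicate 5. HSPA5, the ER chaperone BiP, rose from 8445 ± 559 to 66202 ± 4410 normalized counts, and DDIT3, the stress factor CHOP, from 159 ± 19.6 to 424 ± 58.5, each higher in 5 of 5 same-numbered pairs (log2 fold changes of 2.97 and 1.42, adjusted p 1.36e-14 and 2.10e-08 in edgeR's quasi-likelihood test). Of 8 hepatocyte markers all were detected, including ALB and AFP, and 4 of them, APOA1, APOB, TTR and FGB, were lower with tunicamycin. Their summed level was 61240 to 77070 normalized counts in untreated and 48070 to 53870 in tunicamycin libraries. Of 7 markers of other cell types found in the table, PTPRC, COL1A2 and ADIPOQ had 0 counts in all libraries, and the summed level of the 7 was 16.6 to 35.6 in untreated and 11.0 to 26.1 in tunicamycin libraries, nearly all of it CD68, a macrophage marker, which was lower with tunicamycin (log2 fold change -0.83, adjusted p 0.0319 in edgeR's quasi-likelihood test). Mitochondrial transcripts took 22.75% to 25.15% of untreated and 18.28% to 28.79% of tunicamycin counts, ranges that overlap. Of these differences only library size was varied, and 9 of the 10 genes were called lower with counts thinned to the smallest library. The part of the other differences in the results below was not tested.

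Together the 10 genes gave 2884, 2869, 3195, 3279.9 and 3159 CPM (counts scaled to a common library total) without tunicamycin, in the order of replicates 1 to 5, and 1580.2, 1430.1, 1483, 1414 and 1454 CPM with it. Every tunicamycin library was below every untreated one, and the mean was 3077 ± 189 CPM (SD, n = 5) in untreated and 1472 ± 65.8 (SD, n = 5) in treated cells, a ratio of 0.478. SCD and FASN made up 65.85% to 71.75% of these counts in untreated and 63.95% to 66.67% in tunicamycin libraries. The summed share therefore mainly follows those genes. CPM here do not use the TMM scaling of the other levels. In normalized counts, which do, the means of the 10 genes summed to 13059 in untreated and 6624.2 in treated cells, a somewhat smaller fall.

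In untreated cells the order of levels ran from SCD at 5874.5 normalized counts through FASN, FADS1, ACLY, ACACA, ELOVL5, FADS2, ACSS2 and ELOVL6 to ACACB at 72.4, a span of 81.1-fold. Neighbours in this order had ranges that did not overlap, except FADS2 with ACSS2 and ELOVL6 with ACACB, each pair in its mean order in 3 of 5 libraries. With tunicamycin the span was 119-fold, from SCD at 3088 to ELOVL6 at 26.0. The ranges of ACLY and FADS1 now overlapped, as did those of ACACA and ELOVL5 and those of each neighbouring pair among FADS2, ACSS2, ACACB and ELOVL6. ACLY thus stood level with FADS1, which had been 1.32-fold higher in untreated cells, and ELOVL5 with ACACA, which had been 1.77-fold higher.

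**Figure D2:**
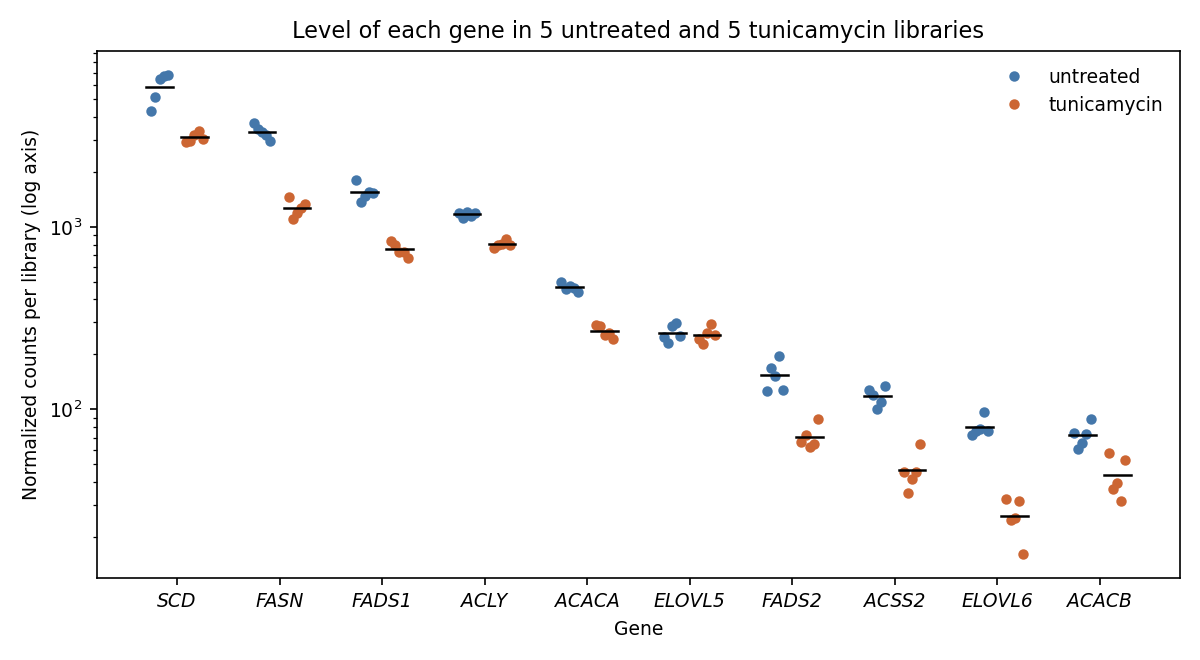
Normalized counts (log axis) of each gene in the 5 untreated (blue) and 5 tunicamycin libraries (orange), 1 point per library in the order of replicates 1 to 5, with a bar at the mean of each group. The groups are apart in 9 genes and lie over each other in ELOVL5, at 262.5 and 257 normalized counts on average.

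The supply of acetyl-CoA was examined in ACLY and ACSS2. ACLY, the citrate lyase, lies at chr17:41866917-41930542 on the minus strand of GRCh38 and had, in the order of replicates 1 to 5, 1195, 1124, 1200.4, 1148 and 1196 normalized counts without and 765, 796, 804, 853 and 797 with tunicamycin. The groups were narrow and well apart. Its mean went from 1173 ± 34.8 to 803 ± 31.7 (SD, n = 5 each), and the log2 fold change was -0.55 ± 0.08 (SE) with an adjusted p of 1.56e-05 in edgeR's quasi-likelihood test, the smallest of the 9 falls.

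ACSS2, the cytosolic and nuclear acetyl-CoA synthetase (chr20:34872146-34927962, plus strand), had 127, 119, 101, 109 and 134 normalized counts in untreated and 45.6, 34.7, 41.6, 45.3 and 64.6 in tunicamycin libraries. All treated values were under the lowest untreated value, although replicate 5 was the highest in both groups. The mean fell from 118 ± 13.5 to 46.4 ± 11.1 (SD, n = 5 each), with a log2 fold change of -1.39 ± 0.16 (SE) and an adjusted p of 1.67e-06 in edgeR's quasi-likelihood test.

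Acetyl-CoA carboxylase, the committed step, is encoded by ACACA, whose cytosolic product feeds synthesis, and by ACACB, whose product sits at mitochondria and makes the malonyl-CoA that restrains fatty acid oxidation. ACACA (chr17:37084992-37406836, minus strand) had 498, 454, 474, 461 and 440.1 normalized counts in untreated and 291, 285, 255, 262 and 244 in tunicamycin libraries. Both groups were narrow, and they did not overlap. The mean was 465 ± 22.1 and 267 ± 19.7 (SD, n = 5 each), and the log2 fold change was -0.79 ± 0.09 (SE), adjusted p 9.78e-07 in edgeR's quasi-likelihood test.

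ACACB (chr12:109116587-109268226, plus strand) was the lowest of the 10 in untreated cells, with 74.0, 60.6, 65.6, 73.5 and 88.4 normalized counts, and had 57.4, 36.7, 39.7, 31.6 and 52.5 with tunicamycin. The groups came close, since the highest treated value, in replicate 1, was just under the lowest untreated value, in replicate 2. The log2 fold change was -0.73 ± 0.18 (SE) with a 95% interval of -1.10 to -0.35 and an adjusted p of 0.00373 in edgeR's quasi-likelihood test, the weakest call of the 9.

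FASN, the multifunctional synthase that builds palmitate (chr17:82078338-82098294, minus strand), had 3686, 3432, 3305, 3179 and 2958 normalized counts without and 1454, 1100.5, 1193, 1272 and 1328 with tunicamycin. The lowest untreated library held over 2 times the counts of the highest treated one. The mean fell from 3312 ± 273 to 1269.5 ± 134 (SD, n = 5 each), with a log2 fold change of -1.38 ± 0.09 (SE) and an adjusted p of 1.72e-09, the smallest of the 10 in edgeR's quasi-likelihood test. Of all tested genes, 2.07% had a lower log2 fold change.

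SCD, the ER desaturase that turns stearate and palmitate into oleate and palmitoleate (chr10:100347233-100364826, plus strand), was the most abundant of the 10. It had 4304, 5163, 6422, 6667 and 6817 normalized counts in untreated and 2921, 2936, 3201, 3347 and 3033 in tunicamycin libraries. Untreated replicate 1 was low for its group, and the treated libraries were closer to each other than the untreated ones. The mean went from 5874.5 ± 1094 to 3088 ± 183 (SD, n = 5 each), and the log2 fold change was -0.93 ± 0.11 (SE), adjusted p 3.41e-06 in edgeR's quasi-likelihood test.

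Of the elongases, ELOVL6 lengthens saturated and monounsaturated chains, such as palmitate to stearate, and ELOVL5 lengthens polyunsaturated chains. ELOVL6 (chr4:110045846-110199199, minus strand) had 72.3, 75.8, 77.9, 96.8 and 76.2 normalized counts in untreated and 32.1, 24.8, 25.5, 31.6 and 16.1 in tunicamycin libraries. Untreated replicate 4 was above its group and tunicamycin replicate 5 below its own, and the groups stayed far apart. The mean fell from 79.8 ± 9.70 to 26.0 ± 6.47 (SD, n = 5 each), and the log2 fold change was -1.57 ± 0.18 (SE) with a 95% interval of -1.95 to -1.20, adjusted p 1.53e-06 in edgeR's quasi-likelihood test. Within same-numbered pairs the log2 ratio was between -2.16 and -1.16.

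ELOVL5 (chr6:53267398-53349179, minus strand) had 249, 230.1, 287, 296 and 251 normalized counts in untreated and 242, 229, 263, 293 and 256 in tunicamycin libraries. The groups lay over each other, and the highest and the lowest libraries of both groups were replicates 4 and 2. The mean was 263 ± 27.7 and 257 ± 23.9 (SD, n = 5 each), and the log2 fold change was -0.04 ± 0.10 (SE), adjusted p 0.819 in edgeR's quasi-likelihood test. The 95% interval, -0.25 to 0.18, allows a level between 84.1% and 113% of the untreated one and excludes falls of the size seen in the other 9 genes.

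FADS2 and FADS1 desaturate polyunsaturated fatty acids, FADS2 at the initial, rate-limiting step and FADS1 later, and their genes overlap on chromosome 11 in opposite directions, with FADS1 inside the annotated span of FADS2. FADS1 (chr11:61799627-61829318, minus strand) had 1802, 1371, 1478, 1547 and 1535 normalized counts in untreated and 838, 797, 727, 728 and 676 in tunicamycin libraries. The groups were far apart, with untreated replicate 1 the highest. The mean fell from 1547 ± 159 to 753 ± 63.9 (SD, n = 5 each), and the log2 fold change was -1.03 ± 0.09 (SE), adjusted p 7.16e-08 in edgeR's quasi-likelihood test.

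FADS2 (chr11:61792980-61867354, plus strand) had 127, 168, 153, 197 and 128 normalized counts in untreated and 65.9, 72.4, 62.3, 64.6 and 88.8 in tunicamycin libraries. Its untreated libraries spread more than those of FADS1, and every treated value was lower than all of them. The mean was 154 ± 29.5 and 70.8 ± 10.7 (SD, n = 5 each), and the log2 fold change was -1.15 ± 0.15 (SE), adjusted p 8.28e-06 in edgeR's quasi-likelihood test. Within pairs the log2 ratio ran from -1.60 in pair 4 to -0.52 in pair 5. The annotated exons of FADS1 and FADS2 overlap on opposite strands around their starts, and whether counting used the strand is not given, but their 3′ ends, where the fragments arise, are 67727 bases apart. ACLY and ELOVL6 also share exonic bases with an opposite-strand gene. In the last 500 bases of the last exon, none of the 10 overlapped an exon of another gene.

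How the genes changed relative to each other was tested with the ratio of their counts within a library, which does not depend on how libraries are scaled. Of 7 pairs of paralogs or linked steps, 4 changed, in a two-sided exact permutation test with p-values adjusted over the 7. The smallest p that 5 against 5 libraries allow is 0.00794. The ratio of ELOVL6 to ELOVL5 was between 0.272 and 0.331 in untreated and between 0.0667 and 0.134 in tunicamycin libraries. This is a difference of -1.59 ± 0.175 (SE) in log2 ratio, with an exact permutation p of 0.00794 and 0.0139 after adjustment. ACSS2 fell against ACLY by 0.81 on the log2 scale (SE 0.166), with ratios between 0.0842 and 0.113 in untreated and between 0.0442 and 0.0822 in tunicamycin libraries. FASN, at 6.71 to 7.56 times the counts of ACACA in untreated libraries, was at 3.86 to 5.42 times with tunicamycin, a log2 difference of -0.59 (SE 0.0875). ELOVL6 also fell against SCD, by 0.71 on the log2 scale (SE 0.194), with ratios of 0.0113 to 0.0169 and 0.00565 to 0.0111. These last 3 pairs have the same exact permutation p of 0.00794, adjusted 0.0139, and all 4 moved the same way in 5 of 5 same-numbered pairs. This test does not use the pairing by replicate number. An exact sign-flip test of the 5 pairs, which cannot give a p under 0.0625, gave an adjusted p of 0.109 for each of the 4.

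In the pairs ACACA with ACACB and FADS2 with FADS1, whose genes fell side by side, the difference in ratio was under its standard error. The log2 ratio of ACACA to ACACB differed by -0.05 ± 0.193 (SE), exact permutation p 0.81, and that of FADS2 to FADS1 by -0.07 ± 0.208 (SE), exact permutation p 0.722, adjusted 0.81 each. SCD had 1.17 to 2.3 times the counts of FASN in untreated and 2.01 to 2.68 times in tunicamycin libraries, a log2 difference of 0.48 ± 0.196 (SE). These ranges overlap, and the exact permutation p of 0.0397 became 0.0556 after adjustment.

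**Figure D3:**
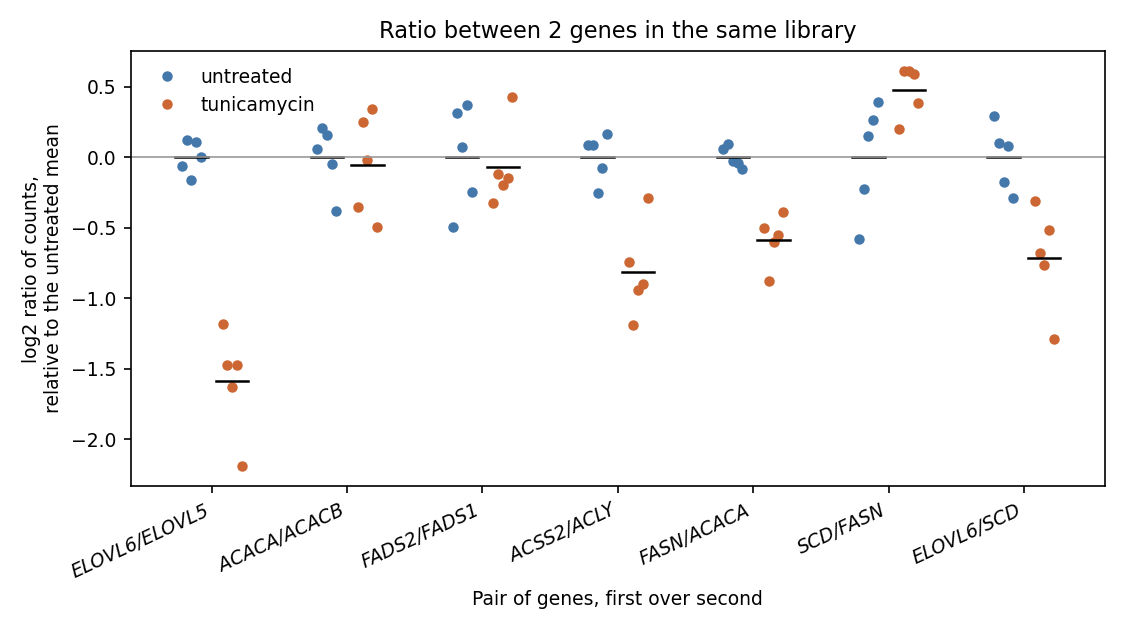
The log2 ratio of the counts of 2 genes in the same library, less the mean of the untreated libraries (vertical axis), for 7 pairs (horizontal axis), with 1 point per library (blue untreated, orange tunicamycin) and a bar at each mean. All treated points of ELOVL6/ELOVL5, ACSS2/ACLY, FASN/ACACA and ELOVL6/SCD lie below the untreated ones, while those of ACACA/ACACB and FADS2/FADS1 mix with them.

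The rest of the elongation and desaturation machinery held both lower and higher genes. Of 16 other genes listed, 12 were tested, 5 were lower, 2 higher and 5 not called, with a median log2 fold change of -0.21. The shares over all tested genes were 16.6% lower and 17.6% higher, and in 8 of 18 alternative fits only 3 of the 12 were lower. The lower ones besides ELOVL3 had small changes: the elongases ELOVL1 (-0.38) and ELOVL2 (-0.28) and the dehydratases HACD2 (-0.41) and HACD3 (-0.27), as log2 fold changes. ELOVL2 and HACD3 were called in only 7 and 12 of the 18 alternative fits. ELOVL3, an elongase of saturated very long chains, had 22 counts over the untreated and 1 count over the tunicamycin libraries, a ratio of 0.0562 with an exact 95% interval of 0.00136 to 0.347 that covers counting error only. DESeq2 with the replicate block gave it no adjusted p, and it was called in the other 15 alternatives that tested it. FADS3, a paralog of FADS1 and FADS2, rose from 34.7 ± 3.52 normalized counts in untreated to 54.6 ± 8.49 in treated cells (SD, n = 5), and its log2 fold change was 0.64 with an adjusted p of 0.00614 in edgeR's quasi-likelihood test, in the opposite direction to both. CYB5A, the cytochrome b5 that hands electrons to the desaturases, rose from 513 ± 123 normalized counts in untreated to 798 ± 183 in treated cells (SD, n = 5), and its log2 fold change was 0.63, adjusted p 0.00698 in the same test. Its untreated replicate 1, at 294 normalized counts, lay far below the others, and the groups overlap. ELOVL4, HACD4, SCD5 and FADS6 were listed at 0 counts in all 10 libraries. Whether such a 0, here and in the lists below, means that the gene is not expressed or comes from how the table was made is not known.

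The mitochondrial pathway of fatty acid synthesis, a separate set of enzymes that serves lipoic acid formation, had 0 of 7 genes called in either direction by edgeR's quasi-likelihood test and by DESeq2. These 0 of 7 stand beside 34.2% called among all tested genes. At an unadjusted p under 0.05, 1 was lower (MCAT, adjusted p 0.0684) and 0 higher. The most abundant, NDUFAB1, its acyl carrier protein, was at 945 ± 41.4 and 932 ± 36.7 normalized counts (SD, n = 5 each) with a log2 fold change of -0.02, and CBR4, a subunit of its ketoacyl reductase, had a log2 fold change of -0.10. The median of the list was -0.02.

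Among 9 genes of citrate export and NADPH supply, 8 were tested, 2 were lower, 1 higher and 5 not called, with a median log2 fold change of -0.06. These 3 of 8 stand beside 34.2% called among all tested genes. SLC25A1, the carrier that exports citrate from mitochondria for ACLY, fell from 409.5 ± 46.7 normalized counts in untreated to 208 ± 28.4 in treated cells (SD, n = 5), and its log2 fold change was -0.99 with an adjusted p of 1.13e-06 in edgeR's quasi-likelihood test. IDH1, the cytosolic NADP-dependent isocitrate dehydrogenase, rose from 885 ± 155 normalized counts in untreated to 1643 ± 414 in treated cells (SD, n = 5), and its log2 fold change was 0.89, adjusted p 0.000155 in the same test. MDH1 was lower, with a log2 fold change of -0.21 that was called in 6 of 18 alternatives. ME1 was listed at 0 counts, which may not be a true 0.

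Of 13 regulators of lipogenic transcription, 11 were tested, 2 were lower, 2 higher and 7 not called, with a median log2 fold change of 0.11. These 4 of 11 are near the 34.2% called among all tested genes. MLXIPL, which encodes ChREBP, had 2237, 1481, 1612, 1796 and 2187 normalized counts in untreated and 859, 907, 760.4, 1381 and 936 in tunicamycin libraries. All treated libraries were lower, with replicate 4 nearest to the untreated ones, and the log2 fold change was -0.95 ± 0.14 (SE), adjusted p 5.14e-05 in edgeR's quasi-likelihood test. SREBF2, which encodes SREBP-2, fell from 282 ± 21.9 normalized counts in untreated to 181 ± 20.8 in treated cells (SD, n = 5), and its log2 fold change was -0.65, adjusted p 6.95e-05 in the same test.

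SREBF1, the gene of SREBP-1, had 81.8, 116, 121, 159 and 152 normalized counts in untreated and 86.99, 149.8, 101, 159 and 111 in tunicamycin libraries. These values overlap throughout, and the log2 fold change of -0.05 had a 95% interval of -0.44 to 0.34 and an adjusted p of 0.85 in edgeR's quasi-likelihood test. SREBP proteins are activated by cleavage, which RNA levels do not show. MBTPS2, a protease of that cleavage, was higher by a log2 fold change of 0.40, called in 10 of 18 alternatives, and SCAP and MBTPS1 were not called. MLX, the partner of ChREBP, had 92.1, 97.2, 95.4, 89.6 and 80.3 normalized counts in untreated and 106, 118, 113, 412 and 297 in tunicamycin libraries. Its treated replicates 4 and 5 were far above the other 3, which were only just above the untreated libraries, and its log2 fold change of 1.15 (adjusted p 0.00628 in edgeR's quasi-likelihood test) became 0.73 without tunicamycin replicate 4. INSIG1, the sterol-sensitive anchor of SCAP, was listed at 0 counts in all 10 libraries, which may not be a true 0, and THRSP had 1 count in all.

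Of 9 genes that control acetyl-CoA carboxylase, 8 were tested, 3 were higher, 0 lower and 5 not called, with a median log2 fold change of 0.13. These 3 of 8 are near the 34.2% called among all tested genes. At an unadjusted p under 0.05 and with DESeq2 the number lower was also 0. HLCS, which attaches the biotin that both carboxylases need, rose from 33.9 ± 5.56 normalized counts in untreated to 54.8 ± 11.0 in treated cells (SD, n = 5), and its log2 fold change was 0.70, adjusted p 0.00627 in edgeR's quasi-likelihood test. PRKAA1, a catalytic subunit of the AMP-activated kinase that phosphorylates and inhibits the carboxylases, rose from 52.5 ± 7.16 normalized counts in untreated to 77.3 ± 17.1 in treated cells (SD, n = 5), and its log2 fold change was 0.54, adjusted p 0.0241 in the same test. It was not called without untreated replicate 1 or without tunicamycin replicate 2, 4 or 5, where its log2 fold change was 0.46 to 0.51. The kinase subunit PRKAB2 was higher by 0.30 on the log2 scale, and PRKAG2 was listed at 0 counts, with the same doubt.

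**Figure D4:**
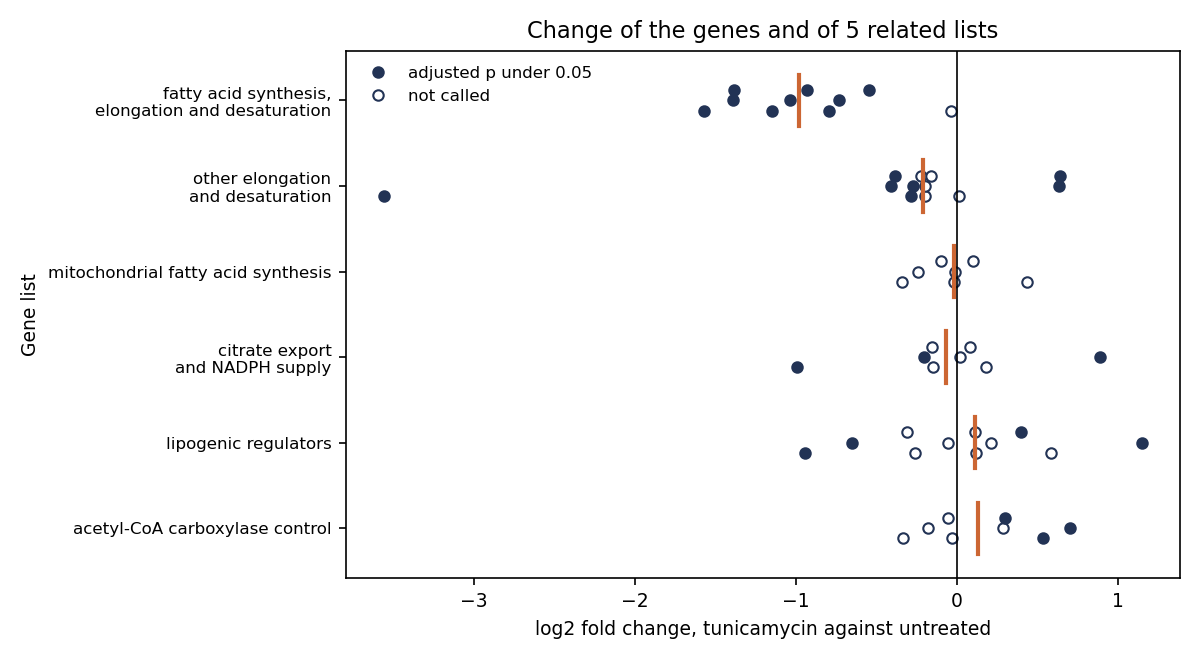
Log2 fold change, tunicamycin against untreated (horizontal axis), of every tested gene of the 10 and of 5 related lists, filled where the adjusted p was under 0.05 and open where not, with an orange bar at the median of each list. The median is -0.98 for the 10 genes and between -0.21 and 0.13 for the other lists; the point farthest to the left is ELOVL3, which has 1 count over all tunicamycin libraries.

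Genes with a mean of at least 100 normalized counts numbered 5651, and those of the pathway among them were left out of the next ranking. By change across the 5 same-numbered pairs, the gene most like FASN was PAQR8. The root mean square difference between its log2 ratios and those of FASN was 0.113. MCM4 (0.146), C18orf56 (0.164), NEAT1 (0.165) and KISS1R (0.171) followed. Of the other 9 genes of the pathway, which were held to no minimum level and were not ranked with these, ACSS2 was the nearest to FASN, at 0.137. FADS2 came next, at 0.417, and ELOVL5 was the farthest, at 1.36. This measure describes 5 pairs and carries no test.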

How the data were processed

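Total RNA of 5 untreated and 5 tunicamycin-treated HepG2 cultures was sequenced with a 3′ method (QuantSeq, forward). The authors ran an nf-core RNA-Seq pipeline in its default configuration on hg19 with Ensembl gene models and deposited raw counts per gene, without normalization, for all 10 libraries; the names of the aligner and counter and the strand setting are not given in the sources used here. Each column was matched to its library by name. With edgeR 4.0.16 in R 4.3.3, genes were filtered by filterByExpr (min.count 2, min.total.count 10), libraries were scaled by TMM, and the quasi-likelihood test was fitted to the 12733 genes left with condition as the single term. Calls used a Benjamini-Hochberg adjusted p under 0.05. Each standard error was obtained by dividing the log2 fold change by the root of F. Ratios between genes and within pairs used a pseudocount of 0.5. The tests were checked on simulated data.

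Libraries held 2234682 to 5029864 counts, which limits what can be said of rare transcripts such as ELOVL3. According to the series text, replicate experiments were run on separate days, and libraries of one number were taken as a pair. Over 10921 genes, the deviations of the 2 libraries of a pair from the means of their conditions correlated with r of 0.314, 0.0172, 0.0341, 0.13 and 0.107 for pairs 1 to 5. Only for untreated replicates 1 and 4 was the treated library with the highest correlation that of the same number. Nothing further says how far the cultures of one condition were independent.

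The genes and lists were chosen with earlier results of these data known. Besides the 10 genes, the text names every gene of the lists called with an absolute log2 fold change over 0.5 (or, where fewer than 2 passed, the 2 with the highest mean), SREBF1, SREBF2, INSIG1 and MLXIPL in any case, HSPA5 and DDIT3 as checks of the treatment, and the 5 genes most like FASN. Genes with smaller changes, those not called that the text lists and those at 0 counts were named after their values were seen. Alternatives were DESeq2 1.42.0, DESeq2's size factors, library size only, no filter, the default filter, a replicate block in either tool, counts thinned to the smallest library, a pseudocount of 1 and each library left out in turn.

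Gene positions are from GENCODE on GRCh38, matched by Ensembl identifier except ACACA, matched by symbol; promoter sequences are from RefSeq on GRCh38.p14. No hg19 coordinate is given.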

Additional observations from a re-analysis of the deposited data

Results flagged for a closer look

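In 46 groups of 5 values (23 named genes in 2 conditions), 1 library stood far from the other 4 in 6 groups, where chance gives about 2.3. Among the 10 genes of the pathway this was so only for ELOVL6, with 96.76 normalized counts in untreated replicate 4 against 72.3 to 77.87 in the others. In the related lists, ELOVL3 had 0.9446 normalized counts in tunicamycin replicate 3 and 0 in the other treated libraries. That is 1 count, from which the flag follows, and the 2.3 does not allow for values so near 0. Untreated replicate 1 had 294.4 normalized counts of CYB5A against 550.1 to 586.7, and 492.3 of SLC25A1 against 379.9 to 395.4. SREBF2 stood at 217.9 in tunicamycin replicate 5 against 168.7 to 177.4, and MLXIPL at 1381 in tunicamycin replicate 4 against 760.4 to 936.2.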

How the results depend on the processing

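The 9 lower genes of the pathway were called in all 18 alternative fits, the replicate block among them (9 lower), and ELOVL5 in none. ELOVL5 was the only one of the 10 whose log2 fold change turned sign with single libraries left out (-0.08129 to 0.01941), being 0.004413, 0.01941 and 0.01126 without untreated replicate 3, untreated replicate 4 and tunicamycin replicate 2. The largest adjusted p of the 9 was 0.0323, for ACACB.

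With the replicate block, the ratios of ELOVL6/ELOVL5 (-1.589), ACSS2/ACLY (-0.8137), FASN/ACACA (-0.5859) and ELOVL6/SCD (-0.7114) kept their values, and their adjusted p was 0.109, because an exact sign-flip test of 5 pairs cannot give less than 0.0625. SCD/FASN was 0.4569 with an adjusted exact permutation p of 0.0333 after thinning, and 0.3312 to 0.5765 with single libraries left out, passing without untreated replicate 5 (0.5765) and without tunicamycin replicate 1 (0.5476), at 0.0444 each. With single libraries left out, ACACA/ACACB ranged from -0.1527 to 0.05473 (-0.1675 after thinning), above 0 without tunicamycin replicate 1 (0.02137) or 5, and FADS2/FADS1 from -0.1975 to 0.01703, above 0 without untreated replicate 2 (0.00227) or 4; the cause was not tested.

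Over the whole table, 2237 genes were higher and 2116 lower, and 1774 and 2570 with library size only. In the related lists, the genes called numbered 3 instead of 5 lower (other elongation and desaturation) in 8 fits, 1 instead of 2 lower (citrate export and NADPH) in 12, 1 instead of 0 lower (mitochondrial) in 3, and 1 instead of 2 higher (regulators) in 7. DESeq2 with the replicate block called 0 regulators higher, with MLX at a log2 fold change of 0.95 and an adjusted p of 0.0749. PRKAA1 was lost without untreated replicate 1 or tunicamycin replicate 2, 4 or 5 (log2 fold change 0.46 to 0.51). With the replicate block edgeR also called MCAT and SCAP lower, and DESeq2 called SCAP lower but not ELOVL2, MDH1 or MBTPS2 and gave ELOVL3 no adjusted p. The block changed no other call of the 10 genes or the 5 related lists.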
